A study of Homo sapiens with 6 samples.

Results

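The RNAs described are 10 long noncoding RNAs tied to translation and stress, taken by gene symbol from a given list out of the 33496 genes in the expression files: the snoRNA host RNAs GAS5, ZFAS1, SNHG1, SNHG5, SNHG8, SNHG12, SNHG15 and EPB41L4A-AS1, and the nuclear RNAs NEAT1 and MALAT1. All 10 were listed in every library, and all 10 reached the mean of 1 FPKM over the 6 libraries that was asked of a gene to be tested. FPKM is a level per length: sequenced fragments are divided by transcript length and by the library's mapped fragments. The libraries came from ARPE-19, an established line of human retinal pigment epithelial (RPE) cells of wild-type genotype. In the Era group (3 libraries) the cells received erastin, an inhibitor of cystine uptake that brings about ferroptosis, at 5 μM for 24 h. In the Era+VK group (3 libraries) a pretreatment with vitamin K1 (VK1, 10 μM, 1 h) preceded the same erastin treatment. No library of erastin-free cells was analysed here, and each comparison asks what VK1 changed in cells that all received erastin.

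A snoRNA host RNA is a spliced transcript whose introns hold small nucleolar RNAs (snoRNAs), which guide the chemical modification of ribosomal RNA. The spliced host RNA is exported, is read by ribosomes over a short reading frame and is then degraded by nonsense-mediated decay, so that blocking translation is known to raise the level of such RNAs. NEAT1 is the scaffold of paraspeckles, nuclear bodies that respond to stress, and MALAT1 is retained in nuclear speckles, where splicing factors are stored.

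Per library, 24143 to 24601 genes had a value above 0 and 11924 to 12027 genes reached 1 FPKM, while the read depth is unknown. Of 9 RPE markers found, 4 had a mean of at least 1 FPKM, with OTX2 at 27.5 to 31.35 FPKM and MITF at 15.49 to 18.59 FPKM, while RPE65 and TYR were at most 0.02 and 0.17 FPKM in any library. BEST1, a chloride channel gene of RPE, was uneven within both groups, at 2.65, 0.65 and 56.98 FPKM in the Era libraries and 36.45, 0.6 and 4.8 FPKM in the Era+VK libraries. The 5 epithelial and culture markers all passed that mean. Their sum was 1398 to 1407 FPKM without VK1 and 1225 to 1261 FPKM with it. The lower sum came mainly from VIM, whose mean was 935 FPKM without and 771 FPKM with VK1. KRT18 (233 and 225 FPKM) and CDH2 (44.6 and 44.1 FPKM) were slightly lower with VK1. The means of KRT8 (181 and 200 FPKM) and TJP1 (7.72 and 8.56 FPKM) lay the other way, so the markers did not fall together. Era+VK replicates 2 and 3 stood apart by their globin transcripts, which summed to 235 and 228 FPKM against at most 0.61 FPKM in the other 4 libraries. Of 11 erythroid and globin markers, 6 had a mean of at least 1 FPKM, and their summed level was 0.07 to 0.21 FPKM in Era and 0.14 to 239 FPKM in Era+VK, while HBB, the adult beta globin, stayed at or under 0.04 FPKM. Endothelial and leukocyte markers summed to at most 1.01 and 0.14 FPKM. The part of these differences in the values below was not tested, and values without both of these libraries are given where they bear on a result. The labels do not say whether the 3 libraries of a group came from separate cultures, so p-values measure only the spread between these libraries, which may be technical.

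The sequences shown first are the starts of transcription of those hosts where the first transcribed bases form a pyrimidine run, because a C followed by pyrimidines (a 5′ terminal oligopyrimidine start) is the signature by which ribosomal protein mRNAs are regulated with translation, and some snoRNA hosts share it. Each line gives 30 bases before and 30 bases from the RefSeq start on GRCh38.p14, 5′ to 3′, with the pyrimidine run that opens the transcript in capitals.

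ZFAS1 (chr20:49278612-49278671, plus strand): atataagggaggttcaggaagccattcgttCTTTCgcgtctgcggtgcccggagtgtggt

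SNHG12 (chr1:28581844-28581903, minus strand): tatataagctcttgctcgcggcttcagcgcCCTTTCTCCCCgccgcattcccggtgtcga

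SNHG5 (chr6:85678704-85678763, minus strand): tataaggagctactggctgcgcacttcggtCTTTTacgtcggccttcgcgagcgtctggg

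SNHG1 (chr11:62855856-62855915, minus strand): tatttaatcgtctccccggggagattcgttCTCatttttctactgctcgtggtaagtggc

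A C followed by at least 4 pyrimidines opened the transcript in ZFAS1, SNHG5 and SNHG12, which is 3 of the 7 hosts with a RefSeq window. Among all 35116 windows 4.07% had such a start, among 85 windows of ribosomal protein genes 48 (56.5%), and among 22 windows of other snoRNA hosts 4 (18.2%). SNHG1 had a run of 3 pyrimidines, SNHG8 and EPB41L4A-AS1 a run of 1, and the RefSeq start of GAS5 none. That GAS5 start (window chr1:173869016-173869075, minus strand) lies upstream of the GENCODE 29 gene, whose span ends at 173868882. Which GAS5 start is used in these cells was not tested. GAS5 has many annotated starts. Of its 29 transcripts in GENCODE 29, 7 begin with at least 5 pyrimidines, whatever the first base. A transcript of 799 bases (exon 1 at chr1:173867960-173867988 on the minus strand) is shown as an example, again with the run in capitals. Its run opens with T, so it does not meet the rule of a C followed by pyrimidines.

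GAS5 transcript start: TTTTCgaggtaggagtcgactcctgtgagg

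In the 300-base RefSeq promoter windows (250 bases before and 50 from the start), neither the E-box CACGTG, whose letters read the same on both strands, nor the C/EBP-ATF response element TGATGNAAN on either strand was found in any of the 8 RNAs with an entry. These motifs were present in 7.26% and 3.61% of all windows, and no match says only that the letters are not in these windows. The GAS5 window is that of the upstream RefSeq start. It does not cover the promoter of the GAS5 transcript shown above.

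In build, RefSeq places 31 snoRNA genes inside the 8 hosts, 11 of them in GAS5, 8 in SNHG1, 4 in SNHG12, 3 in ZFAS1, 2 in SNHG5 and 1 in each of SNHG8, SNHG15 and EPB41L4A-AS1, and none inside NEAT1 or MALAT1. Transcripts have up to 13 exons in GAS5, 11 in SNHG1, 9 in SNHG5, 6 in ZFAS1 and SNHG12, 5 in SNHG15, 4 in SNHG8 and 3 in EPB41L4A-AS1, so the last hosts have about as few as NEAT1 (at most 3) and MALAT1 (at most 4). Transcripts of NEAT1 and MALAT1 reach 22743 and 8708 bases, and the longest host transcript, of SNHG15, has 3116. The longest ATG-to-stop reading frame had a median over the annotated transcripts of 41 codons in SNHG8, 47 in SNHG5, 52 in SNHG1, 53.5 in SNHG15, 56 in GAS5, 59.5 in ZFAS1, 62 in SNHG12 and 71 in EPB41L4A-AS1, against 32 in MALAT1 and 97 in NEAT1. These frames took up 11.8% to 31.0% of the host transcripts by the same medians, 12.8% of those of MALAT1 and 9.27% of those of NEAT1, so that MALAT1 lay within the range of the hosts and NEAT1 below it. Of the 31 snoRNAs, 18 were listed in the files and none reached a mean of 1 FPKM, the highest single value being 1.4 FPKM, so the products of the hosts could not be compared here.

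In level, MALAT1 was the highest of the 10 at a mean of 33.6 FPKM over the 6 libraries, followed by GAS5 (21.3 FPKM), NEAT1 (16.2 FPKM) and SNHG1 (9.59 FPKM). EPB41L4A-AS1 (5.12 FPKM), SNHG8 (4.45 FPKM) and ZFAS1 (4.03 FPKM) formed a middle group, and SNHG5 (2.61 FPKM), SNHG12 (2.34 FPKM) and SNHG15 (1.78 FPKM) were the lowest. The ranges of neighbours in this order overlapped between GAS5 and NEAT1, EPB41L4A-AS1 and SNHG8, SNHG8 and ZFAS1, and SNHG5 and SNHG12. Within a library, however, GAS5 was above NEAT1 and SNHG5 above SNHG12 in 6 of 6, and the other overlapping pairs kept their order in 5 of 6. GAS5 thus had a higher level than the 7 other hosts in every library, as the plot of levels by library shows, and it made up 37.5% to 45.2% of their summed FPKM.

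**Figure D1:**
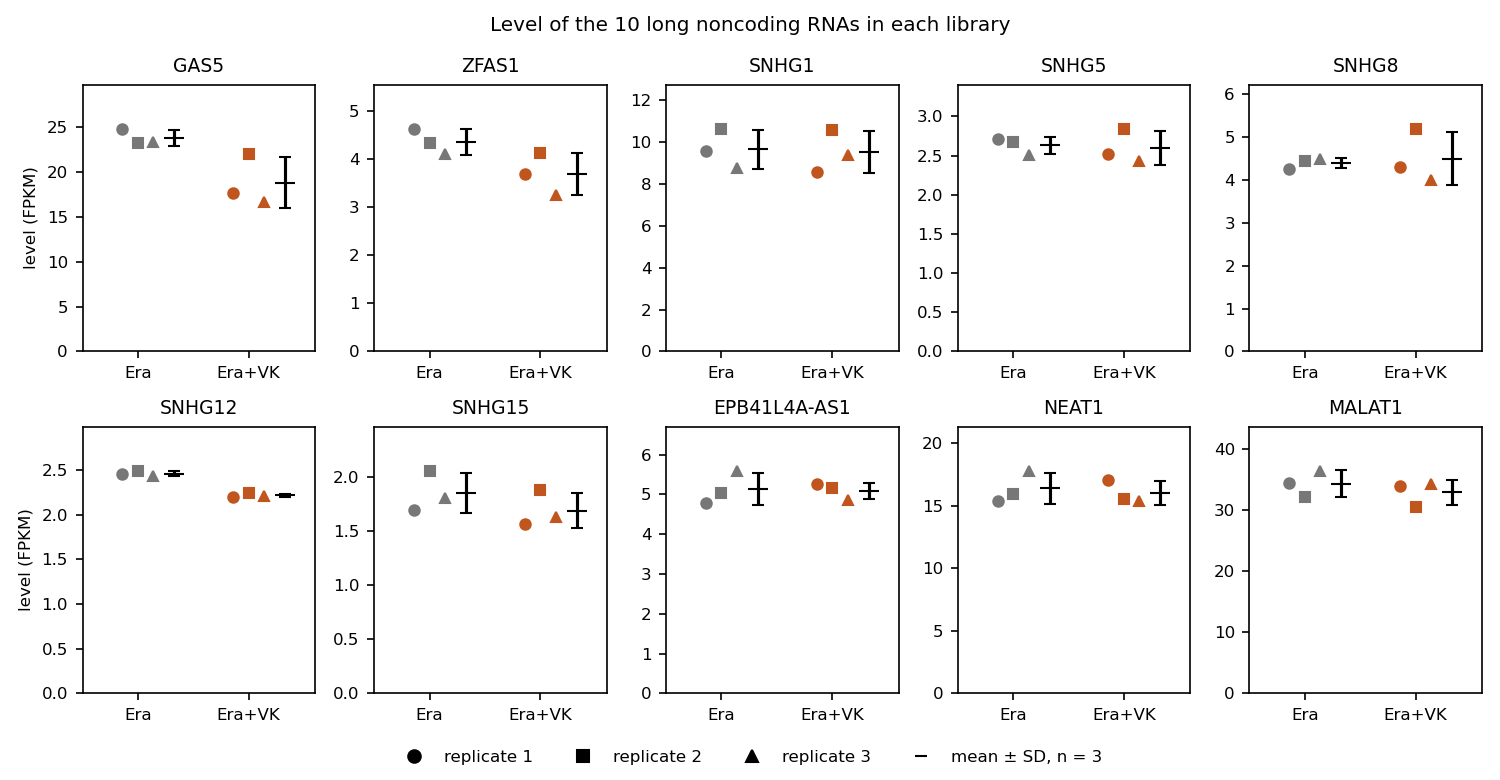
Level in FPKM (vertical axis, from 0, a scale of its own for each RNA) of the 10 long noncoding RNAs in the 3 Era (grey) and 3 Era+VK (orange) libraries, with marker shape for the replicate number and bars for mean ± SD, n = 3. The groups do not overlap for GAS5 (23.24 FPKM or more in Era, 22.04 FPKM or less in Era+VK) and SNHG12, and overlap for the other 8 RNAs.

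None of the 10 RNAs passed an adjusted p of 0.05 between Era+VK and Era (limma with Benjamini-Hochberg adjustment over 11981 genes), where 0.618% of all genes tested were called, 74 in number (0.484% lower and 0.134% higher in Era+VK). At an unadjusted p under 0.05 in limma there were 2 of the 10, GAS5 and ZFAS1, against 15.8% of all genes, and limma without the intensity trend also called 0 of the 10. The fitted difference was below 0 in 9 of the 10, the exception being SNHG8, against 36.7% of all genes tested, and the median of the 10 was -0.05 on the log2 scale where that of all genes was 0.03. All 3 Era+VK libraries lay below all 3 Era libraries in 2 of the 10, GAS5 and SNHG12, against 7.04% of all genes, and above them in 0 of the 10, against 15.1%. Differences given below are log2 fold changes of Era+VK against Era on the log2(FPKM + 1) scale, which understates those of low genes.

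**Figure D2:**
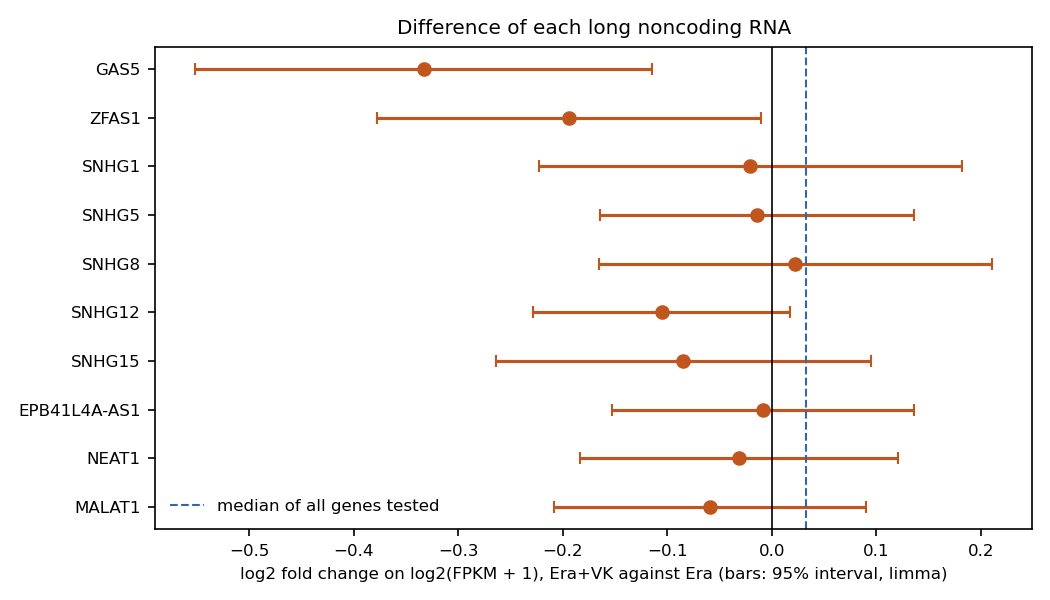
Log2 fold change of Era+VK against Era on log2(FPKM + 1) (horizontal axis) for each of the 10 RNAs, as points with 95% intervals from limma, n = 3 against 3, with a dashed line at the median of all genes tested (0.03). GAS5 at -0.33 and ZFAS1 at -0.19 have intervals that end below 0 without adjustment for multiple tests, and the other 8 intervals hold 0.

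GAS5 (growth arrest specific 5, ENSG00000234741, chr1:173863900-173868882 on the minus strand of GRCh38) is the host known to accumulate in growth-arrested cells and to bind the glucocorticoid receptor. It was at 24.81, 23.24 and 23.36 FPKM in Era and at 17.72, 22.04 and 16.67 FPKM in Era+VK. Every Era+VK library was below every Era library, but Era+VK replicate 2 lay close to the lowest Era library while replicates 1 and 3 lay far below. The means were 23.8 ± 0.874 FPKM and 18.8 ± 2.85 FPKM (SD, n = 3 each), a ratio of 0.790 and a log2 fold change of -0.33 (SE 0.09, 95% interval -0.55 to -0.11). This difference did not pass the adjustment (adjusted p = 0.168 in limma), and the exact two-sided permutation test gave p = 0.1, the smallest that 3 against 3 allows. Of all genes tested, 1.46% had a difference as low or lower. Without Era+VK replicate 2, the Era+VK library nearest to Era, the log2 fold change was -0.45 with an adjusted p of 0.0307 in limma. It was -0.30 (adjusted p = 0.323) without Era+VK replicate 1 and -0.26 (adjusted p = 0.330) without Era+VK replicate 3. Leaving out an Era library gave -0.35 to -0.30, with an adjusted p of 0.321 to 0.356 in limma. Without Era+VK replicates 2 and 3, those with globin transcripts, the log2 fold change was -0.41. GAS5 shares its place with GAS5-AS1 and ZBTB37 on the opposite strand, and the strand setting of the quantification is not given in the sources used here, so reads of such partners cannot be told apart.

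ZFAS1 (ENSG00000177410, chr20:49278178-49295738, plus strand) is transcribed away from the start of ZNFX1 and carries members of the SNORD12 family. Its level was 4.63, 4.34 and 4.10 FPKM in Era and 3.69, 4.14 and 3.25 FPKM in Era+VK. The order of the 3 Era+VK libraries was that of GAS5, with replicate 2 the highest, and here that library was above the lowest Era library, so the groups overlapped. The log2 fold change was -0.19 (SE 0.08, 95% interval -0.38 to -0.01, adjusted p = 0.295 in limma), and the exact permutation test gave p = 0.2. ZNFX1, an RNA helicase gene on the opposite strand, averaged 11.8 ± 0.441 and 11.4 ± 0.677 FPKM (SD, n = 3 each) and gave -0.04.

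SNHG12 (ENSG00000197989, chr1:28578538-28583132, minus strand), with the longest pyrimidine start of the sequences above, had the tightest replicates of the 10. It was at 2.46, 2.49 and 2.43 FPKM in Era and at 2.20, 2.24 and 2.21 FPKM in Era+VK, a coefficient of variation of 1.22% and 0.939%. The groups were clearly apart although the gap was small, the means being 2.46 ± 0.03 and 2.22 ± 0.0208 FPKM (SD, n = 3 each), a ratio of 0.901. The log2 fold change was -0.11 (SE 0.05, 95% interval -0.23 to 0.02, adjusted p = 0.383 in limma, exact permutation p = 0.1). TRNAU1AP, a selenocysteine tRNA factor gene on the opposite strand, was at 3.30 ± 0.187 and 3.73 ± 0.275 FPKM (SD, n = 3 each), with a log2 fold change of 0.14 and an adjusted p of 0.350 in limma.

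SNHG15 (ENSG00000232956, chr7:44983023-44986961, minus strand), a short-lived host whose level is known to respond to many stressors, was at 1.70, 2.06 and 1.81 FPKM in Era and at 1.57, 1.88 and 1.63 FPKM in Era+VK. The groups overlapped, replicate 2 being the highest in each. The log2 fold change was -0.08 (95% interval -0.26 to 0.09, adjusted p = 0.634 in limma).

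The remaining 4 hosts differed by less than the spread between libraries, and each changed sign when at least 1 library was left out. SNHG1 (ENSG00000255717, chr11:62851988-62855914, minus strand), known as a host whose snoRNAs all lie in introns while its exons are poorly conserved, was at 9.57, 10.63 and 8.78 FPKM in Era and at 8.56, 10.57 and 9.41 FPKM in Era+VK. In both groups replicate 2 was the highest, and the log2 fold change was -0.02 (95% interval -0.22 to 0.18). SNHG5 (ENSG00000203875, chr6:85660950-85678748, minus strand), host of the U50 snoRNAs, was at 2.71, 2.67 and 2.51 FPKM and at 2.52, 2.84 and 2.43 FPKM. Era+VK replicate 2 was the highest of the 6 libraries and replicate 3 the lowest, with a log2 fold change of -0.01 (95% interval -0.16 to 0.14). SNHG8 (ENSG00000269893, chr4:118278709-118279823, plus strand), a short host with a single snoRNA, was at 4.26, 4.44 and 4.48 FPKM and at 4.31, 5.19 and 4 FPKM. The same pair of libraries marked its highest and lowest values, and the log2 fold change was 0.02 (95% interval -0.17 to 0.21). EPB41L4A-AS1 (ENSG00000224032, chr5:112160526-112164276, plus strand) was at 4.79, 5.04 and 5.59 FPKM and at 5.26, 5.16 and 4.87 FPKM. It lies within the span of EPB41L4A, the gene for a membrane skeleton protein, on the opposite strand. The limit of the unknown strand setting given for GAS5 holds for EPB41L4A-AS1 too. The Era+VK values of EPB41L4A-AS1 all lay within the range of Era, with a log2 fold change of -0.01 (95% interval -0.15 to 0.14). The adjusted p in limma was between 0.922 and 0.963 for these 4 RNAs.

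Host levels varied between the Era+VK libraries. Era+VK replicate 2 was the highest of its group for 7 of the 8 hosts, and the lowest was replicate 3 for 5 and replicate 1 for 3. The median host stood at -0.13, 0.01 and -0.11 against the mean of Era in Era+VK replicates 1, 2 and 3. The 83 cytosolic ribosomal protein genes, added as a reference after values had been seen, had the same pattern, with medians of -0.10, 0.19 and -0.10 in those libraries and a median log2 fold change of 0.01, none of the 83 passing the adjusted p in limma and none at an unadjusted p under 0.05. Set against that ribosomal protein median in each library, GAS5 was at 0.05, -0.04 and -0.01 in Era and at -0.30, -0.30 and -0.39 in Era+VK. On this scale, which lowers replicate 2 and raises replicates 1 and 3, the 3 Era+VK libraries were alike for GAS5 and far from Era. ZFAS1 was at -0.09, -0.25 and -0.23 in Era+VK against -0.06 to 0.07 in Era, whereas SNHG12 was at -0.01, -0.29 and -0.01. SNHG12 itself was alike in the 3 Era+VK libraries, at -0.11, -0.09 and -0.11 against the mean of Era. Its low value in replicate 2 thus came from the high ribosomal protein median there. The log2(FPKM + 1) scale also understates differences of a low gene such as SNHG12. SNHG1, SNHG5, SNHG8, SNHG15 and EPB41L4A-AS1 did not stand apart on this scale, each having Era+VK libraries within or above its Era range. SNHG1, for example, was at -0.05, -0.07 and 0.07 in Era+VK against -0.11 to 0.12 in Era. NEAT1 was at 0.16, -0.26 and 0.02 in Era+VK and MALAT1 at 0.09, -0.36 and 0.10, below their Era values in replicate 2 alone. The replicate 2 value of every RNA on this scale, GAS5 and ZFAS1 included, holds the same subtraction of 0.19. These relative values are descriptions, with no test, since the reference was chosen with values known.

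**Figure D3:**
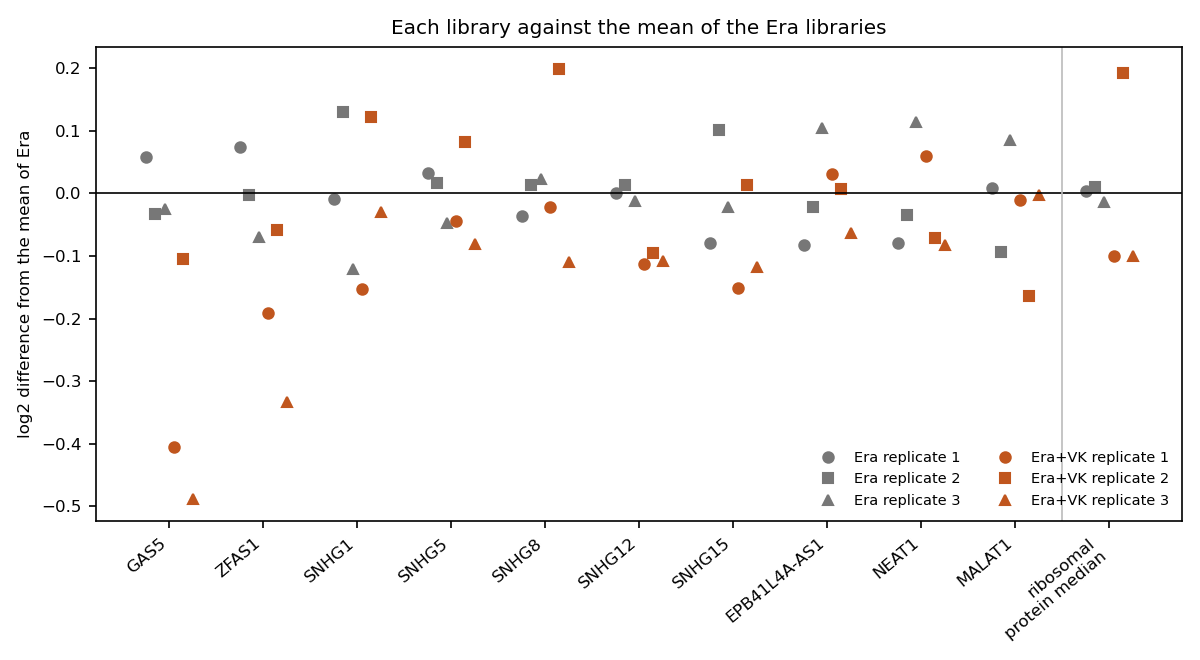
Log2 difference of each library from the mean of the 3 Era libraries, on log2(FPKM + 1) (vertical axis), for the 10 RNAs and, right of the grey line, the median of 83 ribosomal protein genes; grey is Era, orange Era+VK, and shape is the replicate number. Era+VK replicate 2 (orange squares) is above the other Era+VK libraries for 7 of the 8 hosts and for the ribosomal protein genes (0.19 against -0.10 and -0.10), and below them for MALAT1.

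Summed over the 8 hosts, the level was 54.93, 54.91 and 53.06 FPKM in Era and 45.83, 54.06 and 44.47 FPKM in Era+VK. Replicate 2 of Era+VK lay within the range of Era and the other 2 libraries were below it, with means of 54.3 ± 1.07 and 48.1 ± 5.19 FPKM (SD, n = 3 each). Most of the gap was GAS5. Its share of the sum was 45.2%, 42.3% and 44.0% in Era and 38.7%, 40.8% and 37.5% in Era+VK, and without it the sums were 30.5 ± 1.04 and 29.3 ± 2.35 FPKM (SD, n = 3 each). In such bulk libraries, fewer cells that express an RNA and less of the RNA per cell cannot be told apart.

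NEAT1 (ENSG00000245532, chr11:65422774-65445540, plus strand) was at 15.42, 15.95 and 17.78 FPKM in Era and at 17.09, 15.51 and 15.39 FPKM in Era+VK. The ranges overlapped nearly in full, with means of 16.4 ± 1.24 and 16.0 ± 0.949 FPKM (SD, n = 3 each) and a log2 fold change of -0.03 (SE 0.07, 95% interval -0.18 to 0.12, adjusted p = 0.856 in limma, exact permutation p = 0.6). MALAT1 (ENSG00000251562, chr11:65497688-65506516, plus strand), which lies close to NEAT1 on the same strand, was at 34.48, 32.06 and 36.39 FPKM in Era and at 33.99, 30.48 and 34.20 FPKM in Era+VK. Its lowest value was that of Era+VK replicate 2, the highest library of its group for 7 of the 8 hosts, and the groups overlapped. The log2 fold change was -0.06 (SE 0.06, 95% interval -0.21 to 0.09, adjusted p = 0.696 in limma, exact permutation p = 0.4). MALAT1 was 2.24, 2.01 and 2.05 times NEAT1 in the Era libraries and 1.99, 1.97 and 2.22 times NEAT1 in the Era+VK libraries, again without separation. The antisense partner TALAM1 was listed at 0 in the 3 Era libraries and at 0.07, 0.49 and 0.07 FPKM in Era+VK. Its mean of 0.105 FPKM was under the 1 FPKM asked for, so TALAM1 was not tested, and the strand setting is unknown.

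Other snoRNA hosts gave values in both directions. Of 24 listed, 23 were found and 13 tested, 6 with a difference above 0 and 7 below, with a median of -0.01. None passed an adjusted p of 0.05 in limma, and 5 had an unadjusted p under 0.05. Over all genes tested, 15.8% had such an unadjusted p, 36.7% had a difference below 0 and 22.1% had groups that did not overlap. The same shares are the background for the lists that follow. SNHG32, the most abundant and typed as protein coding in GENCODE 29, was at 65.99, 58.49 and 58.12 FPKM in Era and at 46.9, 56.77 and 46.32 FPKM in Era+VK. As with GAS5, the groups did not overlap and replicate 2 came nearest to Era, with a log2 fold change of -0.28 and an adjusted p of 0.197 in limma. SNHG29 was at 33.8, 33.04 and 32.28 FPKM and at 27.79, 32.56 and 26.66 FPKM, with a log2 fold change of -0.19 and an adjusted p of 0.279. Against the ribosomal protein median, SNHG32 was at -0.27, -0.29 and -0.28 and SNHG29 at -0.14, -0.21 and -0.20 in the Era+VK libraries, below their lowest Era values of -0.06 and -0.02. SNHG18 lay the other way, at 3.34, 3.21 and 3.39 FPKM without and 4.84, 4.26 and 3.84 FPKM with VK1, all 3 Era+VK libraries being higher, with a log2 fold change of 0.30 and an adjusted p of 0.138. SNHG30 (0.37, adjusted p = 0.238) was likewise above Era in every library. Without VK1 it was at 0.92, 0.74 and 1.01 FPKM, and with VK1 at 1.06, 1.92 and 1.41 FPKM. Its mean without VK1, 0.89 FPKM, was under the 1 FPKM asked for testing, so SNHG30 was tested only because of its Era+VK level. SNHG19 (-0.29, adjusted p = 0.276) overlapped between the groups.

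All 18 factors of nonsense-mediated decay, the pathway that degrades the hosts, were tested in limma. None passed an adjusted p of 0.05 and 1 had an unadjusted p under 0.05. The difference was above 0 in 13 and below 0 in 5, with a median of 0.03, the same as that of all genes. PNRC2, which links decay factors to decapping, averaged 46.0 ± 0.258 FPKM without VK1 and 51.0 ± 0.693 FPKM with it (SD, n = 3 each), the groups not overlapping, with a log2 fold change of 0.14 and an adjusted p of 0.144. SMG5, which binds phosphorylated UPF1, was at 26.6 ± 0.815 and 29.1 ± 1.75 FPKM (0.12, adjusted p = 0.320), the decay factor gene NBAS at a log2 fold change of 0.16 (adjusted p = 0.344) and the exon junction protein gene MAGOHB at -0.13 (adjusted p = 0.415).

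Of 17 genes for the core and assembly proteins of snoRNPs, the particles that the host introns supply with RNA, 8 had a difference above 0 and 9 below, with a median of -0.03. None passed an adjusted p of 0.05 in limma, and 2 had an unadjusted p under 0.05. DKC1, the pseudouridine synthase of box H/ACA particles, averaged 6.12 ± 0.272 FPKM without VK1 and 5.14 ± 0.333 FPKM with it (SD, n = 3 each), the groups not overlapping, with a log2 fold change of -0.22 and an adjusted p of 0.159. NOLC1, which chaperones these particles, was at -0.14 (adjusted p = 0.262), also without overlap, and NHP2 at -0.14 (adjusted p = 0.509). ZNHIT3, an assembly factor, was at 0.14 (adjusted p = 0.445). FBL, the methyltransferase of box C/D particles, was at 50.7 ± 1.45 and 51.3 ± 7.54 FPKM, a log2 fold change of 0.01.

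Paraspeckle and speckle protein genes likewise held no called member in limma. Of 14 paraspeckle genes 5 were above 0 and 9 below, with a median of -0.04 and 1 at an unadjusted p under 0.05. HNRNPH3, an RNA-binding protein of paraspeckles, was at 32.1 ± 0.966 and 29.5 ± 0.844 FPKM (SD, n = 3 each), without overlap (-0.12, adjusted p = 0.256). TAF15 was at -0.10, DAZAP1 at -0.07, HNRNPK at -0.05 and the core paraspeckle gene PSPC1 at 0.08. Of 14 nuclear speckle genes 9 were above 0 and 5 below, with a median of 0.01 and 0 at an unadjusted p under 0.05. SRSF2, a splicing factor of speckles, was at 66.3 ± 3.69 and 71.2 ± 0.862 FPKM (0.10, adjusted p = 0.366), SRRM1 at -0.11, SRSF5 at 0.09, ACIN1 at 0.08 and the scaffold gene SRRM2 at 0.00. Of 10 other abundant nuclear or stress-linked long noncoding RNAs 9 were found and 4 tested, 2 above 0 and 2 below, with a median of 0.01. NORAD, which sequesters Pumilio proteins, was at 121 ± 5.72 and 113 ± 3.30 FPKM (-0.10, adjusted p = 0.386), and TUG1, MIR22HG and OIP5-AS1 were at 0.00, 0.03 and 0.04, none of the 4 at an unadjusted p under 0.05 in limma.

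**Figure D4:**
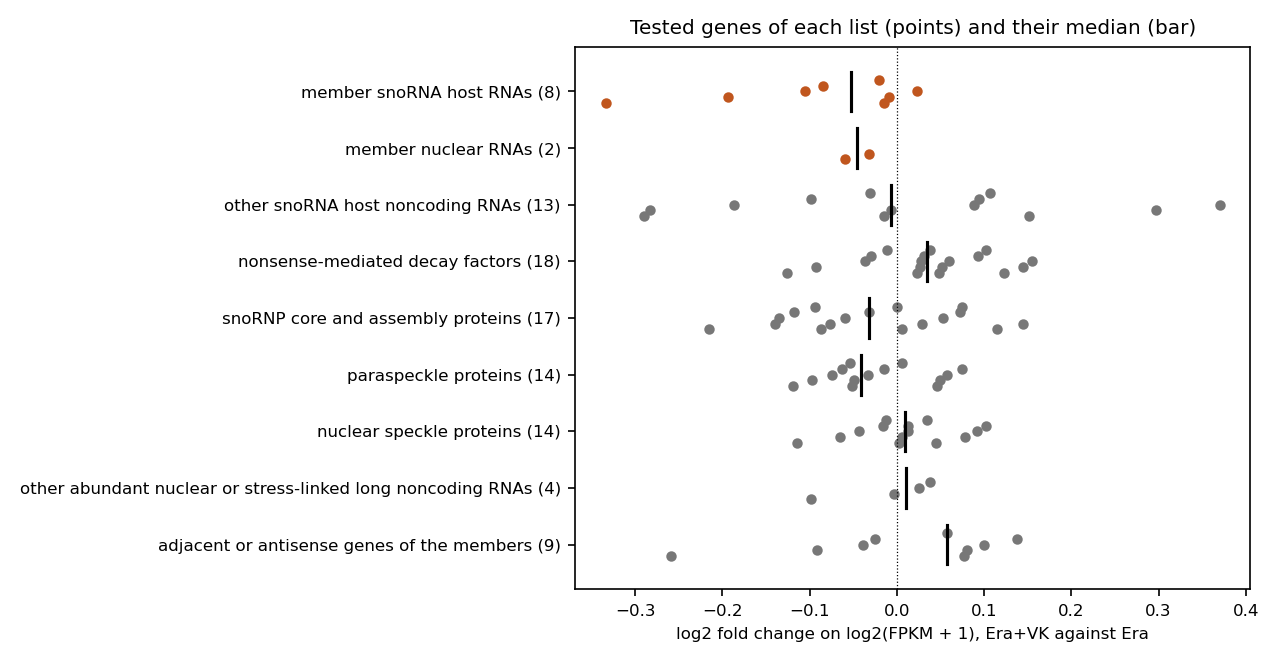
Log2 fold change of Era+VK against Era on log2(FPKM + 1) (horizontal axis) for each tested gene (points) and the median (bar) of the 10 RNAs, in orange and split into 8 hosts and 2 nuclear RNAs, and of the other lists, in grey, with the number of tested genes in parentheses. Medians run from -0.05 to 0.06, and no gene shown has an adjusted p under 0.05 in limma.

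Of 11 genes next to or opposite the 10 RNAs, 9 were tested, 5 above 0 and 4 below, with a median of 0.06, and 1 had an unadjusted p under 0.05. That gene was SLC3A2, beside SNHG1, whose product is the heavy chain of the cystine transporter that erastin inhibits. It was at 46.14, 47.14 and 50.47 FPKM in Era and at 37.59, 40.77 and 41.34 FPKM in Era+VK, every Era+VK library being lower. The log2 fold change was -0.26 (SE 0.05, adjusted p = 0.0923 in limma), which did not pass, while SNHG1 itself was at -0.02. Among other neighbours, the differences were -0.09 for SYNCRIP, beside SNHG5, -0.02 for FRMD8 near NEAT1 and MALAT1, 0.08 for CCM2 near SNHG15, 0.08 for EPB41L4A and 0.10 for PRSS12 near SNHG8. ZBTB37, opposite GAS5, had group means of 0.71 and 0.753 FPKM and was not tested.

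Over the 6 libraries, the genes with the pattern most like GAS5 by Pearson's r of log2(FPKM + 1) were SULT1C2 (0.988), SNHG29 (0.988) and PLAUR (0.987), among 43 genes with r of at least 0.95. Of the other 9 RNAs, ZFAS1 was the nearest to GAS5 (0.956), followed by SNHG12 (0.850). NEAT1 had ENSG00000228327 (0.975), PPDPF (0.974) and TGIF1 (0.966) as its nearest genes, of 11 at or above 0.95, and MALAT1 had ANKZF1 (0.990), SRC (0.984) and RBM6 (0.982), of 23. NEAT1 and MALAT1 were at 0.572 with each other, and EPB41L4A-AS1 was nearer to NEAT1 (0.898). These coefficients describe 6 points that share the group difference and the library scaling, and carry no test.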

How the data were processed

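Libraries of ARPE-19 cells (3 Era, 3 Era+VK) were sequenced as read pairs on an Illumina NovaSeq. What the authors deposited is FPKM, to 2 decimals, for each gene in each library. The submitters' processing notes name cutadapt, HISAT2 and StringTie 2.1.6 and the mouse build mm10, although the gene identifiers are human Ensembl identifiers. RNA selection (poly(A) or ribosomal depletion) and strand setting are not given in the sources used here. FPKM carry no read depth, so no counting interval is given, and values are relative to all mapped fragments.

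The 11981 genes whose mean over the 6 libraries was 1 FPKM or more were fitted with limma 3.58.1 in R 4.3.3 (empirical Bayes with intensity trend) on log2(FPKM + 1), as a two-sided contrast of the 2 groups with no covariate, Benjamini-Hochberg threshold 0.05. The fit was tested on simulated data. Single values had an exact two-sided permutation test of the mean FPKM. Gene positions, transcripts and exons are from GENCODE 29 (GRCh38), matched by Ensembl identifier. Start windows and snoRNA neighbours are from RefSeq (GRCh38.p14), which had a window for 8 of the 10 RNAs, without SNHG15 and NEAT1.

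The RNAs and gene lists were chosen with earlier results of these data known. Named from each list were genes with an adjusted p under 0.05, up to 4 with the largest absolute log2 fold change, up to 2 with the highest mean, all neighbours, and the 3 genes most like GAS5, NEAT1 and MALAT1. SNHG33, MEG3, TTR and CD3E were not analysed here. The values of 2 further genes that this rule names are not reported here. Alternatives were a pseudocount of 0.1, other filters, quantile normalization, rescaling without mitochondrial genes, a replicate block, no trend and libraries left out, and a length-trend correction was added after seeing the data.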

Additional observations from a re-analysis of the deposited data

How the results depend on the processing

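Of the 10 RNAs, GAS5, ZFAS1, SNHG12, SNHG15 and MALAT1 kept a log2 fold change below 0 in each of 15 alternatives. GAS5 ran from -0.45 to -0.26 with an adjusted p of 0.0307 to 0.398 in limma, and it was the 1 RNA called in any alternative, without Era+VK replicate 2 alone, so that the number of RNAs called was 0 to 1 with a library left out and 0 otherwise. Differences near 0 changed sign. With a library left out, SNHG1 ran from -0.092 to 0.046 (above 0 without Era replicate 2 or Era+VK replicate 1), SNHG5 from -0.063 to 0.019 (above 0 without Era replicate 1 or Era+VK replicate 1 or 3), SNHG8 from -0.066 to 0.088 (below 0 without Era+VK replicate 2), EPB41L4A-AS1 from -0.050 to 0.043 (above 0 without Era replicate 3 or Era+VK replicate 3) and NEAT1 from -0.077 to 0.025 (above 0 without Era replicate 3). SNHG8 was at -0.011 under quantile normalization. Without both Era+VK replicates 2 and 3, where the lone library left is assumed to vary like the Era libraries, SNHG8 was at -0.022, EPB41L4A-AS1 at 0.030 and NEAT1 at 0.060. The ratio of summed host levels, 0.886, was 0.831 to 0.920 with a library left out, and the mean difference of log2(FPKM + 1) per host, turned back into a ratio, was 0.938.

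Over all genes, the 74 calls became 1 without a filter (of 31325 genes), 122 with 1 FPKM asked of every library, 112 under quantile normalization, 44 without the trend, 35 without Era+VK replicates 2 and 3, 117 with the length trend removed (13 higher, 104 lower, against 16 higher and 58 lower), and 2 to 70 with a library left out: 2, 2 and 5 without Era replicates 1, 2 and 3, and 42 without Era+VK replicate 3. The causes of these changes in number were not tested. With the replicate number as a block, 42 genes and 0 of the 10 RNAs were called, and GAS5 had an adjusted p of 0.199. Same-numbered libraries correlated at 0.07, 0.10 and 0.02 in their deviations from the group means, and Era replicate 3 correlated best with Era+VK replicate 1 (0.04), so the numbers were not taken to pair the libraries. Unknown read depth limits what can be said of RNAs near 2 FPKM such as SNHG12.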
